A study of Homo sapiens with 6 samples.

Results

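WNK2 and SGK1 are a pair of protein kinases that govern the movement of ions across cell membranes, and they are described here in ARPE-19, a cell line from human retinal pigment epithelium (RPE). They are 2 of 7758 genes in the table the authors deposited. They were selected on their difference between the libraries described below, so their levels are given as values without a test. RNA sequencing was performed on 3 libraries of sh-METTL3 cells and 3 of sh-Control cells, the latter carrying a control hairpin. According to the study's methods the hairpins were delivered by lentivirus and stably transformed strains were selected with puromycin or neomycin. METTL3 is the enzyme that writes N6-methyladenosine (m6A) into mRNA. Cells of both groups were treated for 24 h with lipopolysaccharide (LPS), an inflammatory component of bacterial outer membranes, at 1 μg/ml. The study's methods give medium with serum for primary RPE cells and name no medium for ARPE-19. No library without LPS was analysed here. Separate infections or cultures for the libraries within a group are not stated in the labels, so the spread between them may be technical.

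WNK kinases, named for the unusual place of a catalytic lysine, sense chloride and cell volume. They phosphorylate the kinases SPAK and OSR1, which in turn act on the cation-chloride cotransporters of the SLC12 family, and WNK2 is also known to restrain ERK signalling. SGK1, the serum- and glucocorticoid-regulated kinase, is induced at the level of its gene, is activated by PDK1 and mTORC2, and raises the number of sodium channels and transporters at the membrane, in part by inhibiting the ubiquitin ligase NEDD4L. In the RPE such transport moves salt and water between retina and choroid.

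WNK2 (ENSG00000165238) lies on the plus strand at chr9:93184916-93320572 of GRCh38 and SGK1 (ENSG00000118515) on the minus strand at chr6:134169246-134318112. GENCODE release 29 lists 16 WNK2 transcripts, 8 of them protein-coding, and 30 SGK1 transcripts, 10 of them protein-coding. The promoter sequences are shown because the genes differ in their base composition and because SGK1 starts at several places. Each is the 250 bases before a transcription start in RefSeq (GRCh38.p14), 5′ to 3′ on the strand of the gene, with CG dinucleotides in capitals. The first is from chr9:93183889-93184138, the second, at the farthest upstream SGK1 start, from chr6:134318113-134318362, and the third, at an inner SGK1 start, from chr6:134174867-134175116.
WNK2: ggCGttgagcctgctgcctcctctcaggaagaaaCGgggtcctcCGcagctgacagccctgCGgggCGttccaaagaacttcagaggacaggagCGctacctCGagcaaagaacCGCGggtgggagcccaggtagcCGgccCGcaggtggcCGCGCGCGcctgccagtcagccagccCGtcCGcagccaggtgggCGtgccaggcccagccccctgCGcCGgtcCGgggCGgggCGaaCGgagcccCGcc
SGK1 upstream start: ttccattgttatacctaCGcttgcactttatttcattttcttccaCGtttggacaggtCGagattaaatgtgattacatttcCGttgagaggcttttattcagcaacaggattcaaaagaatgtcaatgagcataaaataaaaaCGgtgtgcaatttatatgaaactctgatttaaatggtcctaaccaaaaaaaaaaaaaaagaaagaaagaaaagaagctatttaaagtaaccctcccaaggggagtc
SGK1 inner start: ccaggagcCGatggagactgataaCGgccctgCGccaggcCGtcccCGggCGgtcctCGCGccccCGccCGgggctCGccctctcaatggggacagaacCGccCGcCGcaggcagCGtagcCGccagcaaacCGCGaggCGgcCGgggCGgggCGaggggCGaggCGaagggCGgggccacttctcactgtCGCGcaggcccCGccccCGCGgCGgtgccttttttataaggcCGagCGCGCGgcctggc
The WNK2 window held 25 CG dinucleotides and was 72.8% G or C. That CG count exceeded those of 78.4% of the 35116 RefSeq promoter windows of this length, whose median was 11. The upstream SGK1 window was poor in CG, with 5 of them and 33.6% G or C, while the inner window held 35, more than in 94.2% of windows. A further SGK1 start between these held 3. The window at that start overlapped annotated exons of 1 SGK1 transcript, and the inner window those of 2. The GC box letters GGGCGG, on either strand, occurred 1 time before WNK2, 6 times before the inner SGK1 start and in 42.6% of all windows. The letters TATAAA, on either strand, occurred 1 time in each of the 3 SGK1 windows and not in that of WNK2, against 10.7% of all windows. No match was found in any of these 4 windows, on either strand, for AGAACA (12.4% of all windows), TGANTCA (6.57%), AGGTCA (12.1%) or TGACG (21.2%), letters that occur in sites of the glucocorticoid receptor, AP-1, nuclear receptors and cyclic AMP responsive factors. A match is a run of letters and not a measured binding site.

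The GGACT letters, which form a common core of m6A sites, occurred 3 times in the 7792 bases of the longest protein-coding WNK2 transcript and 5 times in the 3201 bases of that of SGK1. Per kilobase this is 0.385 for WNK2 and 1.56 for SGK1, with a median of 0.936 over 6736 listed protein-coding genes. WNK2 thus stood above 13.5% and SGK1 above 81.9% of these genes. Methylation itself was not measured in these libraries. The study sequenced m6A-bearing RNA separately and drew SGK1 from its genes with lower m6A after METTL3 silencing. The study also assayed SGK1 protein by western blot. SGK1 was among the genes for which the study designed quantitative PCR primers, shown here because they mark the part of SGK1 that was also assayed by another method.
SGK1 forward primer: catattatgtcggagcggaatgt
SGK1 reverse primer: tgtcagcagtctggaaagaga
The primers matched chr6:134173126-134173148 and chr6:134173061-134173081 of GRCh38, both in coding sequence of exon 6 of the 12 exons of SGK1-201, and span 88 bases. Both sites were present in 12 SGK1 transcripts, of which 5 are protein-coding, and in no transcript of another gene.

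Each value below is a scaled count, the number of reads on a gene divided by 1 size factor per library. Between 10898434 and 17750052 reads per library fell on listed genes. These totals are not library depths, since genes the authors had not called are not in the table. Where 3 values are given for a group, they stand in the order of replicates 1, 2 and 3. The targeted gene METTL3 was at 1118 ± 32.8 (SD, n = 3) in sh-Control and at 911 ± 128 (SD, n = 3) in sh-METTL3 cells, a log2 difference of -0.30 (SE 0.097, limma adjusted p = 0.032). This call was lost without sh-Control replicate 1 (adjusted p = 0.124), replicate 2 (0.0958) or replicate 3 (0.0684), and also with edgeR and RLE factors (0.261) or TMM factors (0.0573) and with limma without the intensity trend (0.120). METTL3 mRNA was thus 18.5% lower with a call that did not hold in every fit, and the groups are named by their labels. The study itself reported lower METTL3 protein and a lower share of m6A in METTL3-silenced ARPE-19 cells. Neither was measured in these libraries. Of 16 RPE markers 8 were listed, 5 higher and 3 lower, with a median log2 difference of 0.63. The higher ones were the keratins KRT8 (1.05) and KRT18 (0.41), the transcription factor MITF (0.85) and the retinoid enzymes LRAT (0.99) and RDH5 (1.56), and the lower ones were SERPINF1 (-3.04), which encodes the secreted factor PEDF, the pigment gene PMEL (-1.80) and BEST1 (-1.73). Their summed level, mostly that of the keratins, was 18927 to 20207 in sh-Control and 30367 to 33688 in sh-METTL3 libraries. RPE65 and RLBP1, which define mature RPE, are not in the table.

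WNK2 was 19.8-fold higher in the cells labelled sh-METTL3. Its scaled counts were 94.1, 82.6 and 80.4 in the sh-Control libraries. In the sh-METTL3 libraries they were 1784, 1780 and 1539. The groups did not overlap, as was so for 98.5% of all listed genes. The libraries of a group lay close together, with a coefficient of variation of 8.60% in sh-Control and 8.26% in sh-METTL3 cells. The control values rest on 118, 86 and 86 reads, and their 95% Poisson intervals, which cover counting error only, ran from 64.3 at the lowest to 113 at the highest. The sh-METTL3 values rest on 1912, 1381 and 1374 reads. The means were 85.7 ± 7.37 and 1701 ± 140 (SD, n = 3), a difference of 4.29 (SE 0.103) on the log2 scale, where 1 was added to each scaled count. Any pair of libraries, one from each group, differed 16.3 to 22.2-fold. In the order of log2 differences WNK2 was number 35 from the highest of 6740 listed protein-coding genes. In bulk RNA, more cells that express a gene and more RNA per cell cannot be told apart.

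SGK1 was lower in the cells labelled sh-METTL3. The sh-Control libraries had scaled counts of 1564, 1463 and 1535, from 1960, 1523 and 1642 reads. The sh-METTL3 libraries had 461, 464 and 233, from 494, 360 and 208 reads. Again the groups did not overlap, as in 98.5% of all listed genes, but sh-METTL3 replicate 3 stood apart from the other libraries of its group. The means were 1521 ± 51.6 and 386 ± 133 (SD, n = 3), 3.94-fold lower, with a log2 difference of -2.04 (SE 0.218). Pairs of libraries differed 3.15 to 6.71-fold, and the coefficient of variation was 3.39% in sh-Control but 34.3% in sh-METTL3 cells. SGK1 was number 333 from the lowest of the 6740 genes, a less extreme place than that of WNK2.

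**Figure D1:**
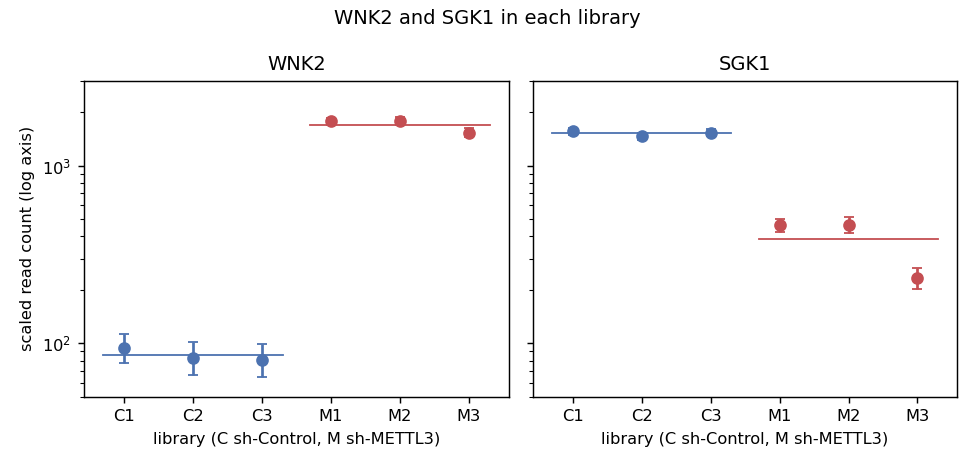
Scaled read counts of WNK2 and SGK1 on a log axis in the 3 sh-Control (C1 to C3) and 3 sh-METTL3 (M1 to M3) libraries. Points are libraries, bars are 95% Poisson intervals of the reads, and lines are group means. WNK2 lies between 80.4 and 94.1 in sh-Control and between 1539 and 1784 in sh-METTL3 libraries, and SGK1 between 1463 and 1564 in sh-Control and at 461, 464 and 233 in sh-METTL3 libraries.

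SGK1 was lowest in sh-METTL3 replicate 3. The 95% Poisson intervals of its reads, on the scale of the scaled counts, ran from 421 to 503, 417 to 514 and 202 to 267 in the sh-METTL3 libraries. The value of replicate 3 was 0.504 of the mean of the other two. Over 5725 protein-coding genes with a mean scaled count of at least 100 the median of this ratio was 0.995 with quartiles of 0.918 and 1.08, and 18 genes (0.314%) were at or below the SGK1 ratio. For WNK2 the ratio was 0.863, with 807 genes (14.1%) at or below it. Without sh-METTL3 replicate 3 the SGK1 mean was 462 and the difference -1.71 on the log2 scale, or 3.29-fold lower.

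Divided by exonic length, the kinases changed places. SGK1 exceeded WNK2 per kilobase by 21.9, 23.4 and 25.2-fold in the sh-Control libraries. In every sh-METTL3 library the order was turned, and WNK2 exceeded SGK1 by 2.93, 2.90 and 5.00-fold. Among listed protein-coding genes the level of WNK2 per kilobase moved from percentile 9.07 in sh-Control to 50.9 in sh-METTL3 cells, and that of SGK1 from 52.2 to 23.6. The exonic length was 13198 bases for WNK2 and 9992 for SGK1, while their longest protein-coding transcripts have 7792 and 3201 bases. Fold values, order and percentiles between genes thus depend on the length used.

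The levels of all 7 listed WNK, SPAK/OSR1 and SGK kinases were set side by side per kilobase of exonic length. The order between genes depends on that choice of length. In sh-Control cells the order from the highest was OXSR1, which encodes OSR1, at 631 ± 14.6 scaled reads per kilobase (SD, n = 3), STK39, which encodes SPAK, at 266 ± 1.11, SGK1 at 152 ± 5.16, WNK4 at 11.3 ± 1.61, WNK2 at 6.49 ± 0.559, WNK3 at 5.98 ± 0.527 and SGK2 at 3.13 ± 0.357. Only the ranges of WNK2 and WNK3 overlapped between neighbours in this order. In sh-METTL3 cells the order was OXSR1 at 508 ± 20.8, STK39 at 179 ± 19.5, WNK2 at 129 ± 10.6, SGK1 at 38.6 ± 13.3, WNK3 at 13.0 ± 2.02, SGK2 at 6.88 ± 1.38 and WNK4 at 5.59 ± 2.61. Here the ranges of SGK2 and WNK4 overlapped. WNK2 thus moved from the level of WNK3 to a level below STK39, which encodes one of the kinases it acts on. WNK1, the widely expressed member of the family, and SGK3 are not in the table and were not analysed here.

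**Figure D2:**
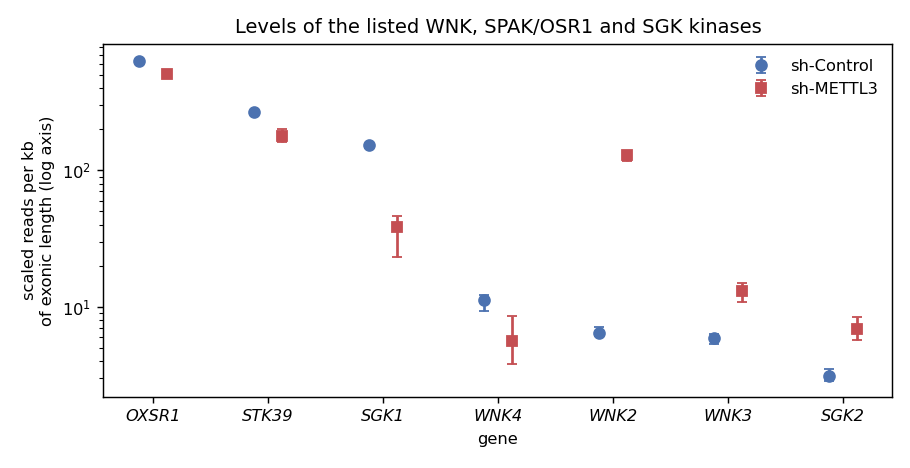
Levels of the 7 listed kinases as scaled reads per kilobase of exonic length on a log axis. Points are group means and bars run from the lowest to the highest of 3 libraries. WNK2 is the fifth gene from the highest in sh-Control and the third in sh-METTL3 cells, while SGK1 moves from the third to the fourth place.

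The other WNK cascade genes were then tested with limma across the whole table. Since the table holds genes the authors had already called, 97.9% of its genes passed the limma test, 46.6% higher and 51.3% lower in sh-METTL3 cells, and in 98.5% the groups did not overlap. A list is therefore described by its counts and median beside the median log2 difference of all listed genes, which was -0.21, and passing the test does not set a gene apart. Of 11 cascade genes 7 were in the table. All 6 besides WNK2 passed the test, 2 higher and 4 lower, with a median of -0.37.

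WNK3, a family member known from brain, had scaled counts of 71.0, 73.0 and 61.7 in sh-Control and 150, 125 and 171 in sh-METTL3 libraries, a log2 difference of 1.10 (SE 0.171, adjusted p = 0.000618). WNK3 and WNK2 were thus both higher in every sh-METTL3 library. WNK4, which regulates salt transport in the kidney, had 47.9, 61.5 and 62.6 in sh-Control and 22.4, 19.3 and 43.7 in sh-METTL3 libraries, a log2 difference of -1.06 (SE 0.307, adjusted p = 0.0205). Its groups came close, and the call was lost without sh-Control replicate 2 or 3 or without sh-METTL3 replicate 1 or 2, with adjusted p-values of 0.0767 to 0.0873. Both kinases downstream of WNK were lower, beside a median of -0.21 for all listed genes. STK39 had scaled counts of 1129, 1132 and 1123 in sh-Control and 753, 849 and 684 in sh-METTL3 libraries, a log2 difference of -0.57 (SE 0.0811, adjusted p = 0.000346). OXSR1 went from 3831 ± 88.5 to 3085 ± 126 (SD, n = 3), a log2 difference of -0.31 (SE 0.0516, adjusted p = 0.000903). KLHL2 and KLHL3 are related adaptors that bring WNK kinases to the ubiquitin ligase CUL3 for degradation, and they moved in opposite directions. KLHL3 rose from 185 ± 6.53 to 313 ± 39.0, by 0.75 on the log2 scale (adjusted p = 0.000754). KLHL2 went from 590 ± 27.6 to 442 ± 39.2, a log2 difference of -0.42 (adjusted p = 0.0043).

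Of the 9 cation-chloride cotransporter genes 3 were listed, 1 higher and 2 lower, with a median of -0.16. SLC12A2, which encodes the sodium-potassium-chloride cotransporter NKCC1 that the WNK cascade stimulates, had scaled counts of 384, 356 and 322 in sh-Control and 434, 441 and 476 in sh-METTL3 libraries. The log2 difference was 0.35 (SE 0.0957, adjusted p = 0.0163). SLC12A4 encodes the potassium-chloride cotransporter KCC1, a kind of carrier that the cascade inhibits. It had 3794 ± 153 and 3390 ± 43.7 (SD, n = 3), a log2 difference of -0.16 (SE 0.0505, adjusted p = 0.03). Without sh-Control replicate 2 or 3 the calls of both were lost and 1 of the 3 genes passed. SLC12A2 then had adjusted p-values of 0.0510 and 0.0671 and SLC12A4 of 0.128 and 0.0794, and SLC12A4 was also lost without sh-METTL3 replicate 1 (0.0633) or replicate 2 (0.0890).

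The SGK kinases and their activators gave 4 listed genes of 10, and of the 3 besides SGK1 1 was higher and 2 lower, with a median of -0.34. SGK2, a relative of SGK1 that is not induced by steroids, had scaled counts of 18.3, 15.4 and 15.0 in sh-Control and 29.9, 33.5 and 43.7 in sh-METTL3 libraries. It rose by 1.08 on the log2 scale (SE 0.260, adjusted p = 0.00821). RICTOR, the scaffold of mTORC2, had 2627, 2823 and 3012 in sh-Control and 2463, 2378 and 1895 in sh-METTL3 libraries, a log2 difference of -0.34 (SE 0.0953, adjusted p = 0.0187). Its lowest value was in sh-METTL3 replicate 3, the library in which SGK1 was lowest. PRR5L, which binds mTORC2, had a log2 difference of -0.40 (SE 0.106, adjusted p = 0.0137). Without sh-Control replicate 2 the calls of RICTOR (adjusted p = 0.0708) and PRR5L (0.0582) were both lost and 1 of the 3 genes passed. RICTOR was also lost without sh-Control replicate 3 (0.0851) and PRR5L without sh-METTL3 replicate 1 (0.0501). SGK3, PDPK1 and MTOR are not in the table.

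Of 23 genes for substrates and transport targets of SGK1 10 were listed, 6 higher and 4 lower, and the median was 0.58. NEDD4L, the ubiquitin ligase that SGK1 inhibits, is not in the table. Its relative NEDD4 had a log2 difference of -0.46 (adjusted p = 0.00171), from 924 ± 98.3 to 671 ± 18.8 (SD, n = 3). The epithelial sodium channel is the target for which SGK1 is best known. Its subunit SCNN1A had scaled counts of 7.98, 11.5 and 7.48 in sh-Control and 22.4, 45.1 and 42.6 in sh-METTL3 libraries, a log2 difference of 1.87 (adjusted p = 0.0017). For SCNN1B there was 1 read in all sh-Control libraries and 29 in the sh-METTL3 libraries, a ratio of 35.6 with a 95% counting interval of 5.90 to 1454. CFTR, an epithelial chloride channel, had no read in sh-Control and 20 reads in sh-METTL3 libraries, at least 8.18-fold higher when 3 reads are allowed over the control group. These 3 channel genes were at low levels in every library. With genes of a mean below 50 left out, 7 genes of the list remained, 3 higher and 4 lower, and its median was -0.43.

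The sodium-hydrogen exchanger SLC9A3 and its scaffolds rose together. SLC9A3 had scaled counts of 371, 390 and 381 in sh-Control and 515, 649 and 546 in sh-METTL3 libraries, a log2 difference of 0.57 (adjusted p = 0.00119). SLC9A3R1 (NHERF1), which ties membrane transporters to the cytoskeleton, rose from 7389 ± 573 to 12181 ± 95.4 (SD, n = 3), by 0.72 (adjusted p = 1.17e-05). SLC9A3R2 (NHERF2), which also binds SGK1, rose by 0.58 (adjusted p = 0.00267). Other targets fell. SLC1A5, a glutamine transporter, had scaled counts of 1197, 1184 and 948 in sh-Control and 167, 169 and 191 in sh-METTL3 libraries, a log2 difference of -2.65 (adjusted p = 1.33e-07). ORAI1, the pore of the store-operated calcium channel, had -1.03 (adjusted p = 4.41e-05).

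SGK1 transcription follows corticosteroids, so the receptors and other genes that glucocorticoid commonly induces were examined. Of 14 genes 8 were listed and all 8 passed the test lower, with a median of -0.62 beside -0.21 for all listed genes. The glucocorticoid receptor NR3C1 had scaled counts of 2706, 2723 and 2867 in sh-Control and 1748, 1795 and 1872 in sh-METTL3 libraries, a log2 difference of -0.62 (adjusted p = 1.26e-05). The mineralocorticoid receptor NR3C2 had 764, 643 and 557 in sh-Control and 341, 327 and 373 in sh-METTL3 libraries, a log2 difference of -0.90 (adjusted p = 0.000185). Both receptors were thus lower in every sh-METTL3 library. ERRFI1, an inhibitor of the EGF receptor, and the transcription factor KLF9 had log2 differences of -1.19 (adjusted p = 2.45e-06) and -0.88 (adjusted p = 6.06e-05). Genes widely used as readouts of glucocorticoid had smaller differences. FKBP5, a chaperone of the receptor, had -0.39 (adjusted p = 0.0168), TSC22D3 (GILZ) -0.36 (adjusted p = 0.0348) and the phosphatase gene DUSP1 -0.24 (adjusted p = 0.0322). The calls of these 3 depended on single libraries. Without sh-Control replicate 1 all 3 were lost (adjusted p-values of 0.0599, 0.0896 and 0.0667), as they were without sh-Control replicate 2 (0.0551, 0.178 and 0.157), which left 5 of the 8 genes past the threshold in either case. FKBP5 was also lost without sh-Control replicate 3 (0.0535), TSC22D3 without sh-METTL3 replicate 1 (0.135) or 2 (0.103) and DUSP1 without sh-METTL3 replicate 1 (0.0803) or 3 (0.0777). PER1, ZBTB16 and both HSD11B enzymes are not in the table.

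Cell volume and osmotic stress also induce SGK1 and engage WNK kinases. Of 13 genes for these responses 5 were listed and all 5 passed the test lower, with a median of -1.02. The osmolyte carriers for taurine and betaine, SLC6A6 and SLC6A12, had log2 differences of -1.07 (adjusted p = 4.43e-06) and -3.00 (adjusted p = 0.000175). SLC6A12 was weak, with scaled counts of 67.0, 45.2 and 44.9 in sh-Control and 2.80, 6.44 and 8.96 in sh-METTL3 libraries. LRRC8C and LRRC8B, subunits of the volume-regulated anion channel, had -1.02 (adjusted p = 0.000131) and -0.60 (adjusted p = 0.00318). NFAT5, the transcription factor that responds to tonicity, had -0.18 (adjusted p = 0.0244), beside a median of -0.21 for all listed genes. Its call was lost without sh-Control replicate 1 (0.105) or 3 (0.0662) or sh-METTL3 replicate 2 (0.108). LRRC8A, the obligatory channel subunit, is not in the table.

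Of 10 genes that commonly follow ERK signalling, which WNK2 is known to restrain, 5 were listed, and all 5 passed the test lower with a median of -1.21. DUSP6, the ERK phosphatase, had scaled counts of 444, 403 and 265 in sh-Control and 109, 113 and 128 in sh-METTL3 libraries, a log2 difference of -1.63 (adjusted p = 7.38e-05). The transcription factor ETV4 had -1.59 (adjusted p = 9.1e-05). Its scaled counts were 345, 298 and 235 in sh-Control and 118, 81.2 and 90.7 in sh-METTL3 libraries. The feedback inhibitors SPRY4 and SPRY2 had -1.21 (adjusted p = 0.000132) and -0.81 (adjusted p = 2.1e-05), and the ephrin receptor EPHA2 had -0.29 (adjusted p = 0.00407).

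Among 15 ion transport genes known from RPE 10 were listed, 4 higher and 6 lower, with a median of -0.32. CFTR, given above, is 1 of them. The bicarbonate transporters SLC4A3 and SLC4A4 rose by 0.82 (adjusted p = 2.71e-06) and 0.58 (adjusted p = 0.000139). BEST1, the chloride channel gene of Best disease, had scaled counts of 79.0, 81.7 and 87.9 in sh-Control and 14.9, 32.2 and 29.1 in sh-METTL3 libraries, a log2 difference of -1.73 (adjusted p = 0.000873). The lactate carriers moved in opposite directions. SLC16A8 (MCT3), found at the basal face of the RPE, rose by 1.30 (adjusted p = 0.0026) from 21.9 ± 5.32 to 54.7 ± 7.39 (SD, n = 3), and SLC16A1 (MCT1) had a difference of -0.55 (adjusted p = 2.88e-05). CLCN2, a chloride channel, and ATP1B3, a pump subunit, had -0.43 (adjusted p = 0.0302) and -0.21 (adjusted p = 0.0285). CLCN2 was lost without any 1 sh-Control library or sh-METTL3 replicate 2 or 3 (adjusted p-values of 0.0578 to 0.119), and ATP1B3 without any 1 sh-Control library or sh-METTL3 replicate 1 or 2 (0.0609 to 0.133).

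**Figure D3:**
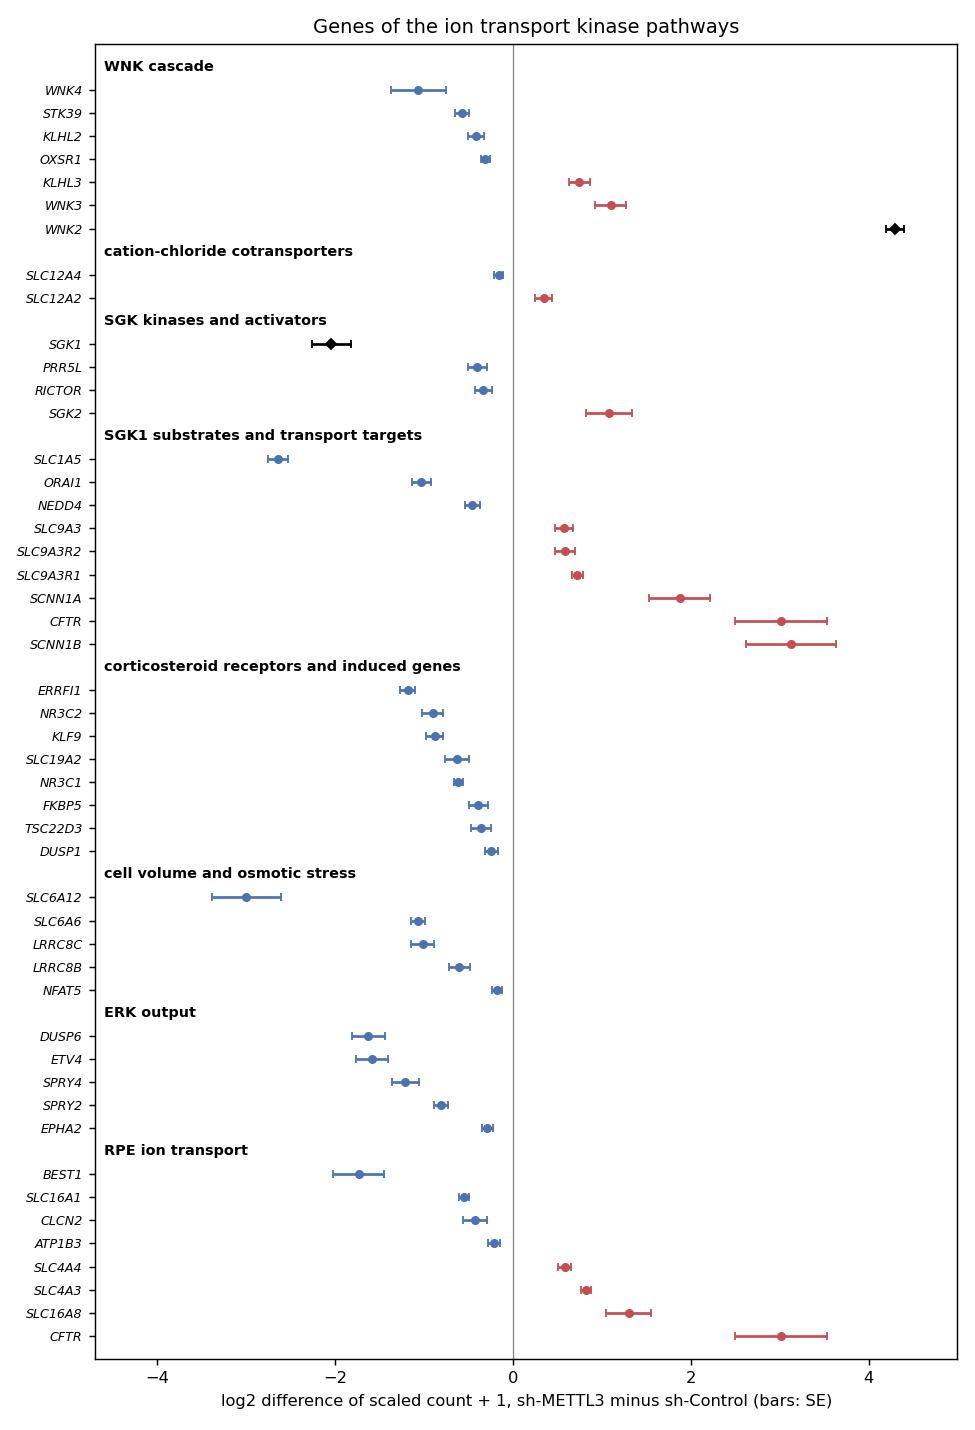
Log2 difference of the scaled count + 1, sh-METTL3 minus sh-Control, for genes of 8 pathway lists, with bars of 1 SE. Black diamonds mark WNK2 (4.29) and SGK1 (-2.04), red points mark genes higher and blue points genes lower in sh-METTL3 cells. CFTR stands in 2 lists. All genes shown for corticosteroid, cell volume and ERK lie left of 0.

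Markers of other cell types moved as well. The 3 listed fibroblast markers of 6, COL1A1, COL1A2 and THY1, were all lower, with a median of -2.26 and a summed level of 7038 to 8093 in sh-Control and 1691 to 2159 in sh-METTL3 libraries. Of 6 immune markers 1 was listed, CD14, at 24.7 to 25.9 in sh-Control and 0 to 2.80 in sh-METTL3 libraries. None of 5 endothelial and 6 neural retina markers was listed. The part of these shifts in the WNK2 and SGK1 values was not tested.

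The genes with the pattern most like that of each kinase were named by the root mean square of the difference in log2 scaled count, relative to the control mean, over the 6 libraries. Candidates were 5724 protein-coding genes with a mean scaled count of at least 100. For WNK2 the nearest were SLC1A1 (0.167), C2orf72 (0.297), DOCK3 (0.306), KCTD15 (0.331) and HSD17B2 (0.387). SLC1A1, a glutamate transporter that also lies on chromosome 9, had scaled counts of 69.2 to 80.4 in sh-Control and 1392, 1277 and 1331 in sh-METTL3 libraries. Among these 5 genes the value of sh-METTL3 replicate 3 ranged from 0.548 of the mean of the other two, in HSD17B2, to 1.55, in C2orf72. For SGK1 the nearest were the cytokine genes IL1B (0.116) and IL32 (0.142), the apoptosis inhibitor BIRC3 (0.163), the peptidase TRHDE (0.164) and the growth factor PDGFB (0.193). IL1B had scaled counts of 803, 887 and 758 in sh-Control and 229, 227 and 120 in sh-METTL3 libraries. All 5 shared the low value of sh-METTL3 replicate 3, at 0.526 to 0.703 of the mean of the other two, which the measure of likeness had used.

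**Figure D4:**
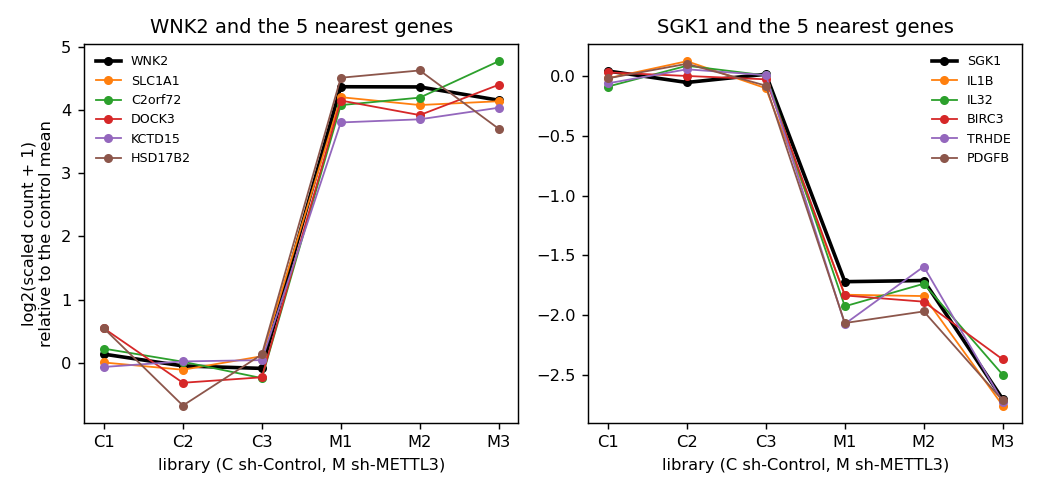
Log2 of the scaled count + 1 relative to the sh-Control mean for WNK2 (left) and SGK1 (right), in black, with the 5 nearest genes of each in colour, in the 3 sh-Control (C1 to C3) and 3 sh-METTL3 (M1 to M3) libraries. Lines only join the points of a gene. The right panel shows SGK1 and its 5 nearest genes all lowest in M3.

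Neighbouring genes did not share the WNK2 difference. Of 51 genes annotated within 1 Mb of WNK2, by the distance of the lower coordinates, 20 are protein-coding and 8 were listed, 2 of them higher and 6 lower with a median of -0.29. SUSD3, 126.2 kb below WNK2, went the opposite way. Its scaled counts were 74.2, 94.2 and 83.2 in sh-Control and 0, 2.58 and 1.12 in sh-METTL3 libraries, from 280 reads against 3, a ratio of sh-Control over sh-METTL3 of 76.0 with a 95% counting interval of 25.8 to 371. CARD19, 88.7 kb below WNK2, had a log2 difference of 0.23 and FAM120A, 266.8 kb above it, of -0.25, so that the nearest listed genes on either side differed little. The other listed genes were IARS (-0.49), NOL8 (-0.41), ECM2 (1.18), PHF2 (-0.23) and PTPDC1 (-0.34). All 8 passed the limma test, but CARD19 was lost without sh-Control replicate 1 or 3 or sh-METTL3 replicate 1 (adjusted p-values of 0.0593 to 0.0747) and ECM2 without sh-Control replicate 2 or sh-METTL3 replicate 2 (0.0514 and 0.0523). PHF2 was lost without sh-Control replicate 1 or 2 or sh-METTL3 replicate 1 (0.0578 to 0.0652), and PTPDC1 without any 1 sh-Control library or sh-METTL3 replicate 2 or 3 (0.0678 to 0.136). Around SGK1 32 genes are annotated within 1 Mb, 6 of them protein-coding, and 2 were listed. TARID, an antisense RNA, had a log2 difference of -1.24 (adjusted p = 0.0155), a call lost without sh-Control replicate 1 (0.0693) or 3 (0.0712). The glucose transporter SLC2A12 had 0.46 and did not pass the test (adjusted p = 0.0628). Within 5 Mb 53.6% of the 28 listed genes around WNK2 and 62.5% of the 24 around SGK1 were lower, beside 52.3% of all listed genes. The wider window was chosen after the values were seen.

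**Figure D5:**
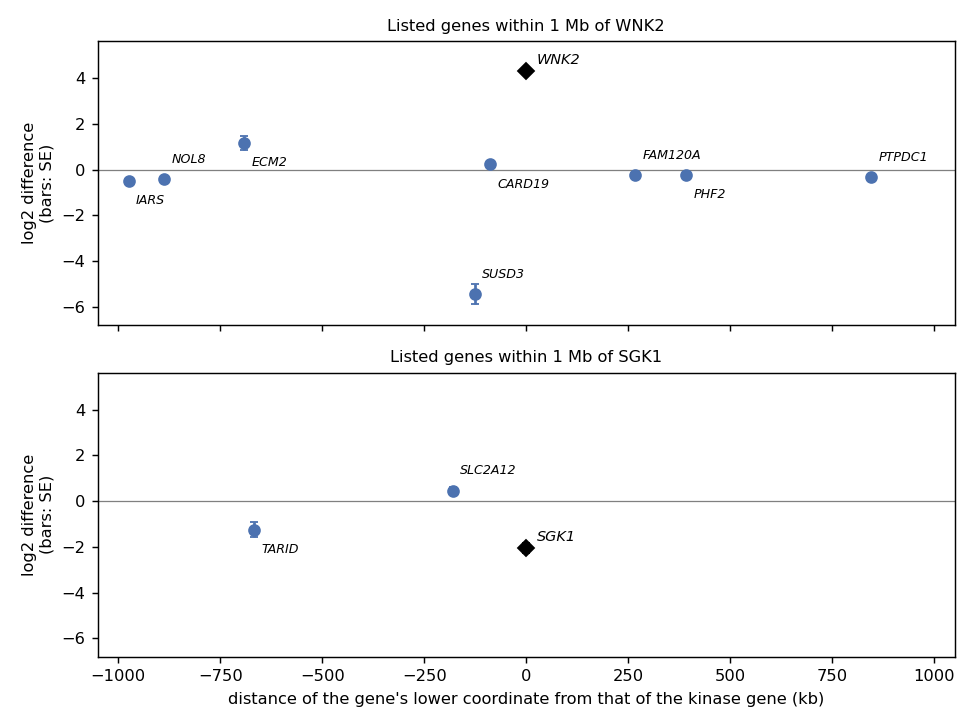
Log2 difference, sh-METTL3 minus sh-Control, of the listed genes within 1 Mb of WNK2 (top) and SGK1 (bottom) against the distance of their lower coordinate in kb, with bars of 1 SE. The black diamond is the kinase itself, at 4.29 for WNK2 and -2.04 for SGK1, and SUSD3 lies at -5.43.

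Other genes overlap both kinases. C9orf129, on the opposite strand, shares 2374 bases with the end of WNK2, and SGK1 spans 4 pseudogenes or RNA genes, of which KRT8P42, with 1699 bases, lies on the strand of SGK1. None of these is in the table. Whether the counting used strand was not stated, so reads of WNK2 and C9orf129 in the shared bases cannot be told apart, and strand would not separate reads of SGK1 from those of KRT8P42.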

How the data were processed

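Libraries of LPS-treated ARPE-19 cells were compared, 3 sh-METTL3 and 3 sh-Control. The submitters' processing notes name HISAT2 2.0.5 and hg38, while Cufflinks with RefSeq mRNAs, for assembly and differential expression of single-end reads, is what the study's methods name. The table does not have that form, since all 7758 genes had Ensembl identifiers and GENCODE release 29 coordinates and the values are scaled read counts. The counter and test behind the table, and strandedness, are not given in the sources used here. The authors deposited a scaled signal for every library, namely reads per gene over 1 size factor, and 100% of values were whole reads within 0.01 reads. The authors also deposited group means and, for every gene, their own log2 fold change and p-values, raw and adjusted, which were used only to find how genes were selected: each had an adjusted p of at most 0.05, and 22977 tests are implied, 33.8% of them listed. Unlisted genes were not analysed here, and single results of some listed genes are not reported here. In 13 rows a symbol turned into a date was restored.

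limma 3.58.1 (R 4.3.3) with an intensity trend was fitted to log2(scaled count + 1), a pseudocount of 1, across all listed genes. Benjamini-Hochberg adjustment was over 22977 tests with a threshold of 0.05. Fold changes on this scale understate changes of weak genes. The design stated before the unit of the table was checked allowed for limma on scaled counts. Named genes were WNK2, SGK1, METTL3, members of the pathway and marker lists, listed genes within 1 Mb and the 5 genes of most similar pattern. The members and lists were chosen with earlier results of these data known. Alternatives were edgeR 4.0.16 on the recovered reads, DESeq2 1.42.0, limma-voom, other pseudocounts, filters, adjustments and thresholds, a replicate block and leaving out each library. The fits were tested on simulated data. Reads without molecular identifiers are not independent molecules, so intervals cover counting error only.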

Additional observations from a re-analysis of the deposited data

How the results depend on the processing

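The log2 difference of WNK2 was 4.25 to 4.37 and that of SGK1 -2.21 to -1.71 when 1 library was left out, with -1.71 without sh-METTL3 replicate 3. With edgeR and RLE factors WNK2 was at 4.43, and the median of all listed genes shifted by 0.12 on the log2 scale, with 3703 genes called higher and 2871 lower. RLE factors left 1 of the 3 SGK activator genes and 5 of the 8 corticosteroid genes past the threshold. At a threshold of 0.01 there were 1 of 3 cotransporters, 1 of 3 SGK activators and 5 of 8 corticosteroid genes. With a doubling or halving required as well, 2369 genes were called (1352 higher, 1017 lower), among them 2 WNK cascade genes, 0 cotransporters, 1 SGK activator, 5 SGK1 targets, 1 corticosteroid, 3 cell volume, 3 ERK and 3 RPE ion transport genes. Without that limit the 3 cotransporters passed at an adjusted p under 0.05, so their passing at an unadjusted p under 0.05 was fixed in advance. Leaving out 1 library gave 6541 to 7290 called genes, 5 to 6 WNK cascade genes, 1 to 3 cotransporters, 1 to 3 SGK activators, 10 SGK1 targets, 5 to 7 corticosteroid, 4 to 5 cell volume, 5 ERK and 8 to 9 RPE ion transport genes. Over METTL3 and the pathway, neighbouring and similar genes, 69 in all without WNK2 and SGK1, 19 lost a call in at least 1 of up to 19 alternatives besides the size limit, and 0 changed sign. Single marker genes were not followed through the alternatives. For EPHA2 and FAM120A this was the fit with RLE factors. The replicate numbers did not pair the libraries, with correlations of deviations of 0.0036, 0.0193 and -0.015 for the same numbers. A replicate block gave 7481 called genes, of which 7406 overlapped with those without the block. It ended the calls of SLC12A4 (adjusted p = 0.0570) and TSC22D3 (adjusted p = 0.0527). The causes of these shifts were not tested. The table holds only genes the authors had called, so counts of calls describe that selection, and low reads limit SCNN1B, CFTR and SUSD3.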
